A study of Homo sapiens with 36 samples.

Results

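CRB2, TP53I11, PLEKHB1, ALDH3B1, TLE2 and REC8 are 6 of the 58302 genes counted in RNA sequencing of mantle cell lymphoma cells. They were picked by symbol because earlier results on the same libraries had them higher with a KDM5 inhibitor, so the inhibitor values given here are a description of that choice and carry no test. Mantle cell lymphoma is a B cell malignancy driven by cyclin D1. The study used 3 established lines of it, JEKO, MINO and UPN-1. Each line received the vehicle DMSO or GS716054, the study's KDM5 inhibitor, and was collected 24 h or 72 h later, which made 12 groups of 3 libraries labelled as biological replicates, 36 in all. All groups shared 1 culture medium, the labels name no altered allele, each line stands for 1 tumour, and the dose of GS716054 is not stated in the labels. The labels do not say whether the replicates were separate cultures, so the p values below measure the spread between these libraries, which may be technical.

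KDM5 enzymes are histone demethylases that take methyl groups off lysine 4 of histone H3, a mark found at active promoters. Inhibitors of the family are studied as a way to keep that mark in place. The 6 genes have unlike textbook roles. CRB2 encodes a Crumbs family transmembrane protein that sets the apical side of epithelial cells. TP53I11 encodes a membrane protein and was named as a gene induced by p53. PLEKHB1 encodes a membrane-binding protein with a pleckstrin homology domain, studied mainly in photoreceptors. ALDH3B1 is an aldehyde dehydrogenase that oxidises aldehydes derived from lipids. TLE2 is a Groucho family corepressor, which does not bind DNA itself and is brought to genes by factors such as HES, RUNX and TCF/LEF. REC8 is the meiotic kleisin, the subunit that closes the cohesin ring in germ cells.

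The 6 genes lie on 4 chromosomes in GENCODE v44 (GRCh38). CRB2 (ENSG00000148204) spans chr9:123356170-123380324 on the plus strand. TP53I11 (ENSG00000175274) spans chr11:44885903-44951306 on the minus strand, PLEKHB1 (ENSG00000021300) chr11:73646178-73662819 on the plus strand and ALDH3B1 (ENSG00000006534) chr11:68008578-68029282 on the plus strand. TLE2 (ENSG00000065717) spans chr19:2997639-3047635 on the minus strand, and REC8 (ENSG00000100918) chr14:24171853-24180257 on the plus strand. Since the H3K4 methyl mark is a promoter mark, the 150 bases just upstream of each start site are printed 5′ to 3′ along the gene's strand, from the RefSeq promoter table (GRCh38.p14), with each CpG in capitals.
CRB2: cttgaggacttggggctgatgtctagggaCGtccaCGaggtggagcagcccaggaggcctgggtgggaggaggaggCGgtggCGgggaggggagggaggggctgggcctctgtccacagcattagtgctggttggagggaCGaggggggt
TP53I11: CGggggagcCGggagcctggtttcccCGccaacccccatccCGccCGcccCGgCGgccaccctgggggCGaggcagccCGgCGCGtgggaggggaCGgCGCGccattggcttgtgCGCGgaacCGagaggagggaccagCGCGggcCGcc
PLEKHB1: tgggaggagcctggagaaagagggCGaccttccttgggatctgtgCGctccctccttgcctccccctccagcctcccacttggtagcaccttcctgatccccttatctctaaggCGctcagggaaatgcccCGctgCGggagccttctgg
ALDH3B1: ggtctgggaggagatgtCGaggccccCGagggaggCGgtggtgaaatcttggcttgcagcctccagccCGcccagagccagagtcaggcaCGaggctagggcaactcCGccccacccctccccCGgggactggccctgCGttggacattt
TLE2: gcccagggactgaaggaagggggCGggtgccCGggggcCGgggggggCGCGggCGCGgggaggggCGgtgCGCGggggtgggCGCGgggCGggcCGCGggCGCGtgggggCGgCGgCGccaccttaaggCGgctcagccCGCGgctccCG
REC8: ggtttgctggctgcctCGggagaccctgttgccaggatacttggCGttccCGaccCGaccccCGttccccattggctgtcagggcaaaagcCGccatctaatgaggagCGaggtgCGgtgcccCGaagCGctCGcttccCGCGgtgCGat
The sequences lie upstream of the start site of the main transcript of each gene. CRB2's is chr9:123356047-123356196 and TP53I11's is chr11:44950884-44951033. PLEKHB1's is chr11:73646431-73646580 and ALDH3B1's is chr11:68010177-68010326. TLE2's is chr19:3029281-3029430 and REC8's is chr14:24171930-24172079. CpG content divided the genes. Over the full 250 bases upstream, TP53I11 had 36 CpGs, TLE2 29 and REC8 21, against a median of 19.0 over the promoters of 14569 genes. ALDH3B1 had 11, PLEKHB1 8 and CRB2 5, and 29.2%, 24.2% and 17.9% of promoters had fewer than these. For TP53I11, 93.0% of promoters had fewer, and its GC content was 81.2% against a median of 63.6%. Both CpG-poor and CpG-rich promoters were thus present among the 6 genes. No motif searched was present in every one of them. GGGCGG, searched on both strands like the others, was in the 250 bases of TP53I11, ALDH3B1 and TLE2 and in 60.3% of all promoters. CCAAT was found in TP53I11 and REC8 and in 35.3% of promoters, and TTCCCGC in REC8 and in 7.89%. CACGTG (7.99% of promoters) and TATAAA (9.16%) were found in 0 of the 6. Read on the opposite strand, TTCCCGC is GCGGGAA, which can share bases with GGGCGG. These are matches of letters and not binding sites.

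Depth ran from 8784815 to 14970876 reads in genes per library, with a median of 11926903. Levels are given as CPM, read counts scaled to a common library size. A count of 0 then allows up to 0.196 to 0.353 CPM. This limit covers only counting error, because reads that carry no molecular identifier need not come from separate molecules. All 8 B cell and mantle cell lymphoma markers were detected in all 36 libraries, with CCND1 at 1210 to 3090 CPM and CD5 at 0.834 to 102 CPM. Of the markers of other cells, S100A8 and S100A9 were at 0 in all 36 libraries and CD3D in 19. The 5 T and NK cell markers summed to 5.81 to 17.1 CPM in MINO with DMSO and 11 to 32.1 CPM with GS716054, of which CD8A reached 28.9 CPM; their part in the values below was not tested. The 5 myeloid markers stayed under 6.58 CPM in sum, and the 4 epithelial and fibroblast markers between 0.492 and 20.0 CPM, mostly EPCAM. In bulk RNA, fewer cells that carry a transcript and less of it per cell cannot be told apart.

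The levels below are in CPM on scaled library sizes. Within a gene they can be compared across libraries; between genes they cannot, because long transcripts give more reads.

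CRB2, the polarity gene, was a low transcript in DMSO and stood between 18.1 and 30.2 CPM with GS716054 at 72 h in the 3 lines. In JEKO, replicates 1, 2 and 3 held 6.61, 7.32 and 7.47 CPM with DMSO at 24 h and 9.64, 13.6 and 9.6 CPM with GS716054. At 72 h the same line held 11, 9.95 and 8.2 CPM with DMSO and 21.8, 24.9 and 21.2 CPM with GS716054. At each time the treated JEKO libraries lay above all DMSO libraries. In MINO, the 24 h values were 6.24, 5.05 and 6.52 CPM with DMSO and 14.0, 15.3 and 11.1 CPM with GS716054. At 72 h MINO held 6.53, 10.1 and 6.79 CPM with DMSO and 21.2, 30.2 and 20.5 CPM with GS716054. Here too no treated library came down to a DMSO one, and replicate 2 was the highest of both 72 h groups. In UPN-1, the 24 h values of 7.81, 9.31 and 8.13 CPM with DMSO overlapped the 8.79, 9.76 and 10.4 CPM with GS716054. At 72 h UPN-1 held 9.02, 14.9 and 9.51 CPM with DMSO and 22.9, 24.3 and 18.1 CPM with GS716054, again without overlap. As log2 fold changes ± SE (n = 3 a group), the 24 h differences in JEKO, MINO and UPN-1 were 0.61 ± 0.188, 1.15 ± 0.23 and 0.19 ± 0.204. At 72 h they were 1.22 ± 0.182, 1.62 ± 0.225 and 0.99 ± 0.193 in the same order, or 2.33-fold, 3.06-fold and 1.98-fold. CRB2 was 1 of the 2 chosen genes whose treated and DMSO groups stood apart in every line at 72 h, TP53I11 being the other. The share of all genes that stood apart in this way is not given here. Because the genes were chosen for being raised with GS716054, nothing is read from this count.

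TP53I11, the gene named for p53, had little spread between replicates and differences of similar size in the 3 lines. In JEKO at 24 h it held 63.1, 60.3 and 55.9 CPM with DMSO and 79.5, 83.8 and 72.3 CPM with GS716054. At 72 h JEKO held 67.4, 74.6 and 66.4 CPM with DMSO and 98.5, 119 and 92.0 CPM with GS716054. In MINO, where the gene was highest, the 24 h values were 95.9, 88.9 and 100 CPM with DMSO and 148, 144 and 130.0 CPM with GS716054. These JEKO and MINO groups did not overlap. MINO at 72 h held 80.8, 87.0 and 88.7 CPM with DMSO and 134, 138 and 156 CPM with GS716054. UPN-1 held 42.5, 42.1 and 43.4 CPM with DMSO at 24 h and 58.1, 60.2 and 59.1 CPM with GS716054. Its 72 h values were 51.2, 58.5 and 47.8 CPM with DMSO and 80.4, 98 and 89.5 CPM with GS716054. Treated libraries were above DMSO libraries without overlap in all 6 comparisons. The log2 differences were 0.38 ± 0.13, 0.54 ± 0.113 and 0.46 ± 0.112 in JEKO, MINO and UPN-1 at 24 h, and 0.57 ± 0.129, 0.72 ± 0.114 and 0.78 ± 0.11 at 72 h. The largest of these was 1.72-fold, so TP53I11 combined a modest difference with a small error.

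**Figure D1:**
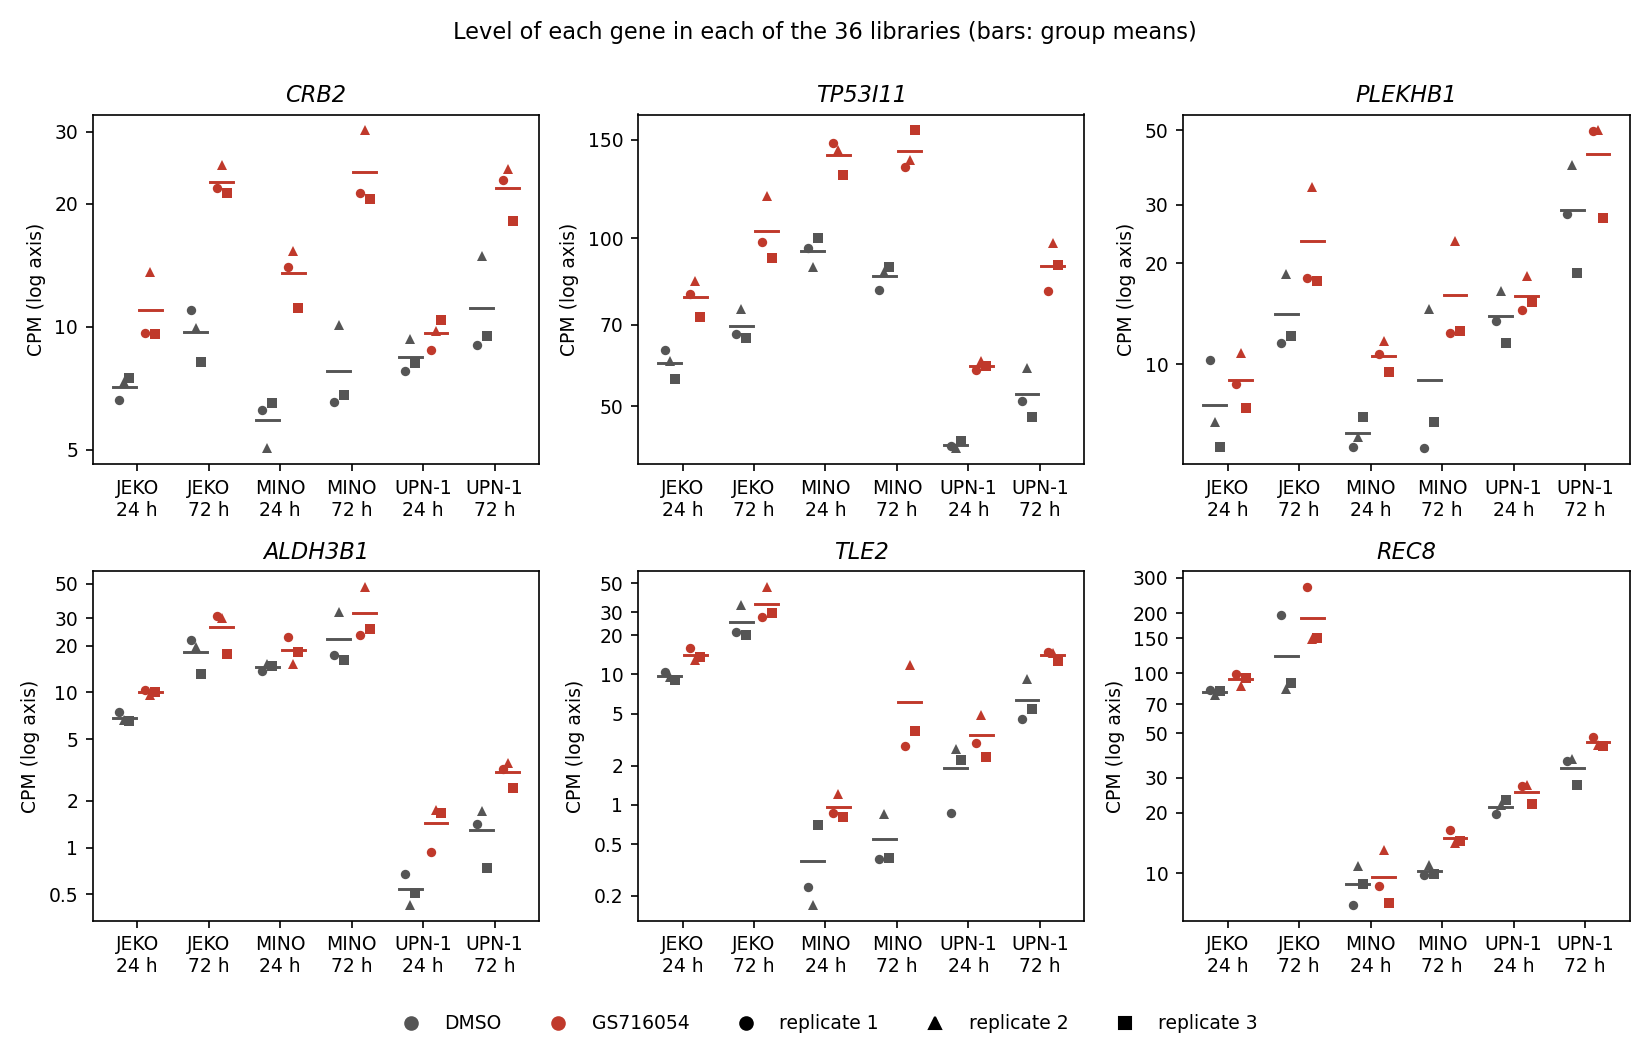
Level of each gene in CPM (log axis) in each of the 36 libraries, by line and time, with DMSO in grey, GS716054 in red, symbols for replicates 1 to 3 and bars for group means (n = 3). CRB2 and TP53I11 show red above grey at 72 h in every line, with CRB2 at 18.1 CPM or more when treated; ALDH3B1 in UPN-1 and TLE2 in MINO lie far below their levels in JEKO, and replicate 1 of JEKO at 72 h stands high for REC8 in both treatments.

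PLEKHB1, the pleckstrin homology gene, had a higher mean at 72 h than at 24 h in each line and treatment and varied more between replicates. In JEKO at 24 h it held 10.3, 6.7 and 5.64 CPM with DMSO and 8.73, 10.8 and 7.41 CPM with GS716054, so that replicate 1 was lower when treated. At 72 h JEKO held 11.6, 18.6 and 12.1 CPM with DMSO and 18.1, 33.9 and 17.7 CPM with GS716054. The JEKO groups overlapped at both times. MINO held 5.65, 6.07 and 6.96 CPM with DMSO at 24 h and 10.7, 11.7 and 9.47 CPM with GS716054, without overlap. Its 72 h values were 5.61, 14.6 and 6.72 CPM with DMSO and 12.4, 23.4 and 12.6 CPM with GS716054, where the DMSO replicate 2 passed 2 of the treated libraries. In UPN-1 the 24 h values were 13.5, 16.5 and 11.6 CPM with DMSO and 14.5, 18.3 and 15.3 CPM with GS716054. At 72 h UPN-1 had 28.1, 39.5 and 18.7 CPM with DMSO and 49.7, 50 and 27.4 CPM with GS716054. Both UPN-1 comparisons overlapped, although each treated library was above the DMSO library of its own number. The log2 differences were 0.25 ± 0.303, 0.73 ± 0.341 and 0.21 ± 0.27 in JEKO, MINO and UPN-1 at 24 h, and 0.73 ± 0.287, 0.85 ± 0.331 and 0.58 ± 0.251 at 72 h. In all 6 groups at 72 h replicate 2 was the highest library for this gene.

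ALDH3B1, the aldehyde dehydrogenase, was expressed in JEKO and MINO and close to the detection limit in UPN-1. JEKO held 7.42, 6.63 and 6.56 CPM with DMSO at 24 h and 10.4, 9.68 and 10.1 CPM with GS716054, without overlap. At 72 h JEKO held 21.7, 19.6 and 13.2 CPM with DMSO and 30.9, 30 and 17.7 CPM with GS716054. Replicate 3 was the lowest of both 72 h groups, which overlapped. MINO held 13.8, 15.2 and 14.8 CPM with DMSO at 24 h and 22.6, 15.3 and 18.1 CPM with GS716054, with replicate 2 almost level. Its 72 h values were 17.5, 32.8 and 16.2 CPM with DMSO and 23.5, 47.6 and 25.4 CPM with GS716054. Replicate 2 stood above the others in both 72 h groups, which overlapped. In UPN-1 the gene had 4 to 7 reads a library with DMSO at 24 h (0.675, 0.428 and 0.513 CPM) and 9 to 20 reads with GS716054 (0.93, 1.75 and 1.67 CPM). At 72 h UPN-1 had 9 to 19 reads with DMSO (1.42, 1.72 and 0.738 CPM) and 31 to 45 with GS716054 (3.21, 3.53 and 2.41 CPM). The UPN-1 groups did not overlap at either time, at a depth that leaves wide errors. For JEKO, MINO and UPN-1 the log2 differences at 24 h were 0.54 ± 0.234, 0.32 ± 0.302 and 1.41 ± 0.452. At 72 h they were 0.53 ± 0.219, 0.54 ± 0.295 and 1.25 ± 0.375. Its closest relative, ALDH3B2, shares 87.4% of bases over 1337 aligned transcript bases, or 47.5% of the ALDH3B1 transcript, so reads from that stretch may have been split or dropped in counting.

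TLE2, the corepressor, lay between 9.13 and 46.8 CPM in the JEKO libraries and at a few reads in MINO with DMSO. JEKO held 10.4, 9.55 and 9.13 CPM with DMSO at 24 h and 16, 13.0 and 13.6 CPM with GS716054, without overlap. At 72 h JEKO held 21.1, 34.3 and 20.1 CPM with DMSO and 27.6, 46.8 and 29.8 CPM with GS716054. Replicate 2 was the highest of both groups, and the groups overlapped. MINO had 2 to 8 reads a library with DMSO at 24 h (0.235, 0.171 and 0.704 CPM) and 8 to 13 with GS716054 (0.87, 1.2 and 0.811 CPM). At 72 h MINO had 5 to 8 reads with DMSO (0.384, 0.856 and 0.392 CPM) and 24 to 130 with GS716054 (2.82, 11.8 and 3.69 CPM). All treated MINO libraries were above all DMSO ones at both times, and replicate 2 at 72 h held most of the treated reads. UPN-1 held 0.868, 2.68 and 2.2 CPM with DMSO at 24 h and 3.0, 4.93 and 2.34 CPM with GS716054, with overlap. Its 72 h values were 4.59, 9.17 and 5.41 CPM with DMSO and 15, 14.7 and 12.7 CPM with GS716054, without overlap. The log2 differences were 0.54 ± 0.239, 1.3 ± 0.726 and 0.82 ± 0.388 in JEKO, MINO and UPN-1 at 24 h, and 0.47 ± 0.226, 3.51 ± 0.616 and 1.17 ± 0.318 at 72 h. Without the treated replicate 2, the MINO value at 72 h was 2.61, and that at 24 h was 2.18 without the DMSO replicate 3. TLE2 shares 81.8% of bases with TLE3 over 998 aligned bases, 78.5% with TLE1 and 78.0% with TLE4.

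REC8, the meiotic cohesin subunit, was most abundant in JEKO and its differences with GS716054 were small at 24 h. JEKO held 82.4, 77.9 and 81.2 CPM with DMSO at 24 h and 98.7, 86.3 and 94.9 CPM with GS716054, without overlap. At 72 h JEKO held 195, 83.0 and 89.5 CPM with DMSO and 270, 148 and 150 CPM with GS716054. Replicate 1 stood far above the other libraries in both 72 h groups, and its DMSO library exceeded 2 treated ones. MINO held 6.94, 10.8 and 8.8 CPM with DMSO at 24 h and 8.59, 13.0 and 7.12 CPM with GS716054, with replicate 3 lower when treated. Its 72 h values were 9.76, 11 and 9.86 CPM with DMSO and 16.5, 14.2 and 14.4 CPM with GS716054, without overlap. UPN-1 held 19.7, 21.8 and 23.1 CPM with DMSO at 24 h and 27.2, 27.5 and 22.2 CPM with GS716054, again with replicate 3 lower when treated. At 72 h UPN-1 held 36.4, 37.3 and 27.5 CPM with DMSO and 48.2, 43.8 and 43.4 CPM with GS716054, without overlap. The log2 differences were 0.2 ± 0.293, 0.08 ± 0.233 and 0.24 ± 0.143 in JEKO, MINO and UPN-1 at 24 h, all within 2 SE of 0. At 72 h they were 0.63 ± 0.291, 0.55 ± 0.228 and 0.44 ± 0.138. The MINO value at 24 h turned to -0.06 without the DMSO replicate 1 and to -0.21 without the treated replicate 2. The JEKO value at 72 h was 1.13 without the DMSO replicate 1 and 0.27 without the treated replicate 1.

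Within a time, treated and DMSO libraries of the same replicate number tended to deviate together, so each treated library was also set against the DMSO library of its number. GS716054 was higher in 51 of 54 such pairs at 24 h and in 54 of 54 at 72 h. The exceptions at 24 h were PLEKHB1 in JEKO replicate 1 (ratio 0.85), REC8 in MINO replicate 3 (0.809) and REC8 in UPN-1 replicate 3 (0.961). The median ratio at 72 h was 2.53 for CRB2, 2.35 for TLE2, 1.61 for PLEKHB1, 1.59 for TP53I11, 1.53 for ALDH3B1 and 1.46 for REC8. Of all 13791 genes tested in every line, 2.99% were higher in all 9 pairs at 24 h and 2.61% at 72 h. Since the 6 genes were chosen for being raised, nothing is read from these shares.

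**Figure D2:**
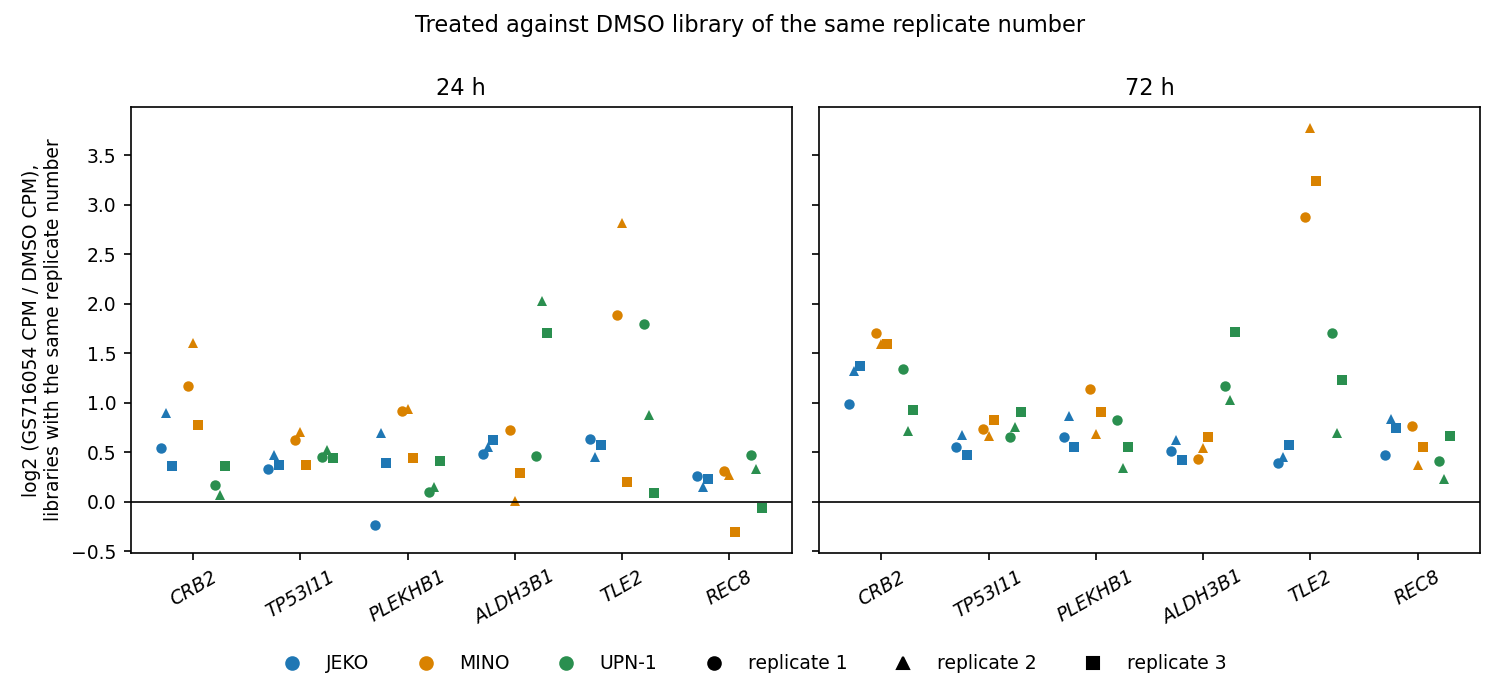
Log2 ratio of GS716054 to DMSO CPM between libraries of the same line, time and replicate number, at 24 h (left) and 72 h (right), with colours for lines, symbols for replicates and a line at 0. All 54 points lie above 0 at 72 h and 51 of 54 at 24 h; the high TLE2 points are from MINO, where the DMSO libraries held 2 to 8 reads.

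The difference was larger at 72 h than at 24 h in 15 of 18 gene and line combinations. CRB2 gained 0.61, 0.47 and 0.8 log2 units between the times in JEKO, MINO and UPN-1. TP53I11 gained 0.19, 0.18 and 0.32, PLEKHB1 0.48, 0.12 and 0.37, and REC8 0.43, 0.47 and 0.2. TLE2 gained 2.21 in MINO and 0.35 in UPN-1 and changed by -0.07 in JEKO. ALDH3B1 gained 0.22 in MINO and changed by -0.01 in JEKO and -0.16 in UPN-1. These changes between times were not tested, because the choice of genes used both times. The median of the 6 log2 differences at 24 h was 0.46, 0.64 and 0.35 for JEKO, MINO and UPN-1, and at 72 h it was 0.6, 0.78 and 0.88. Over all genes tested the median lay between -0.03 and 0.01.

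The counts of genes past a threshold are given as a description of the choice. With treated libraries all above DMSO libraries, JEKO had 5 of the 6 genes at 24 h (7.02% of all genes tested) and 2 at 72 h (6.51%). MINO had 5 (19.9%) and 4 (12.3%), and UPN-1 2 (7.82%) and 5 (5.15%). At an adjusted p under 0.05 in edgeR's quasi-likelihood test, the numbers higher were 0 in JEKO at 24 h (0.0% of all genes), 1 at 72 h (0.204%), 2 in MINO at 24 h (1.44%), 3 at 72 h (3.51%), 0 in UPN-1 at 24 h (0.00656%) and 2 at 72 h (0.275%). The 72 h counts include CRB2 in each of the 3 lines. As the genes were chosen from these same contrasts, this is no test of them. Nothing is read from these counts. The choice was by name and had no threshold, so no gene lies just outside it.

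The comparison of culture time without inhibitor asked how the vehicle cells differed between 24 h and 72 h. The choice of genes did not use this comparison, but it used the DMSO libraries of both times. The tests of the 6 genes here are therefore not independent of that choice. In JEKO, ALDH3B1 rose from 6.87 ± 0.477 to 18.2 ± 4.4 CPM (mean ± SD, n = 3), a log2 change of 1.4 ± 0.232 with an adjusted p of 0.00135 in edgeR's quasi-likelihood test with Benjamini-Hochberg adjustment. TLE2 rose from 9.68 ± 0.628 to 25.2 ± 7.95 CPM in JEKO (log2 change 1.38 ± 0.237, adjusted p 0.00163). PLEKHB1 rose from 7.54 ± 2.43 to 14.1 ± 3.89 CPM in JEKO (0.9 ± 0.299, adjusted p 0.0341). These 3 of 6 genes passed the test as higher, against 17.1% of all genes tested in JEKO. All 6 had every 72 h DMSO library above every 24 h one, against 25.0% of genes. CRB2 (0.45 ± 0.188, adjusted p 0.0827), REC8 (0.61 ± 0.293, 0.122) and TP53I11 (0.22 ± 0.13, 0.209) did not pass. The PLEKHB1 call was lost without the 24 h DMSO replicate 2 or 3 or the 72 h replicate 2 (adjusted p 0.106 to 0.135). REC8 in JEKO rested on 1 library: its change was 0.11 without the 72 h replicate 1 (adjusted p 0.747), and it passed without replicate 2 (0.84, adjusted p 0.0459).

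In UPN-1, TLE2 rose over culture time from 1.91 ± 0.936 to 6.39 ± 2.44 CPM (log2 change 1.74 ± 0.368, edgeR adjusted p 0.0401). REC8 rose from 21.5 ± 1.72 to 33.7 ± 5.45 CPM (0.66 ± 0.142, adjusted p 0.0421). These were 2 of the 6 genes, against 1.35% of all genes tested called higher in UPN-1. PLEKHB1 (1.07 ± 0.264, adjusted p 0.0521), ALDH3B1 (1.25 ± 0.452, 0.116), TP53I11 (0.31 ± 0.112, 0.117) and CRB2 (0.41 ± 0.202, 0.21) did not pass. In 5 of the 6 genes the DMSO groups of the 2 times did not overlap, against 13.9% of genes. The TLE2 and REC8 calls were each lost on leaving out any 1 of the 6 libraries other than the 72 h replicate 3 (adjusted p 0.0502 to 0.184 for TLE2 and 0.0984 to 0.186 for REC8). Without that replicate 3, TP53I11 (adjusted p 0.043), PLEKHB1 (0.00405) and ALDH3B1 (0.0291) passed as well. ALDH3B1 held 4 to 7 reads a library with DMSO at 24 h and 9 to 19 at 72 h. It was kept by the filter on low counts only through its treated libraries, so its values here are a description.

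In MINO, 0 of the 6 genes passed for culture time in edgeR, 0 had an unadjusted p under 0.05, and 0 passed in DESeq2. Over all genes, 14 (0.0932%) were called in that comparison by edgeR, 929 by DESeq2, and 3580 had an unadjusted p under 0.05. The log2 changes were 0.59 ± 0.3 for ALDH3B1, 0.5 ± 0.341 for PLEKHB1, 0.45 ± 0.771 for TLE2, 0.39 ± 0.232 for CRB2, 0.2 ± 0.231 for REC8 and -0.15 ± 0.113 for TP53I11. TLE2 held 2 to 8 reads a library with DMSO in MINO. The filter on low counts kept it only through its treated libraries, so its values and its place in these counts are a description. In 3 of the 6 genes the DMSO groups of the 2 times did not overlap. ALDH3B1 and CRB2 were higher at 72 h, as 15.2% of genes were without overlap, and TP53I11 was lower. Without the 72 h replicate 2 the change was 0.0 for PLEKHB1 and 0.06 for TLE2, and without the 24 h replicate 3 it was 1.33 for TLE2. TP53I11 in MINO was thus the 1 gene and line of 18 with a lower mean at 72 h in DMSO, and 30.7% of genes tested in all lines had a log2 change above 0 in each. Whether the change over time differed between lines was not tested. Set beside the inhibitor difference at 72 h, the culture time change was the larger value in JEKO for ALDH3B1 (1.4 against 0.53), TLE2 (1.38 against 0.47) and PLEKHB1 (0.9 against 0.73). The same held in UPN-1 for TLE2 (1.74 against 1.17), PLEKHB1 (1.07 against 0.58) and REC8 (0.66 against 0.44), and in MINO for ALDH3B1 (0.59 against 0.54). It was the smaller for CRB2 and TP53I11 in every line. Both comparisons share the 72 h DMSO libraries.

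**Figure D3:**
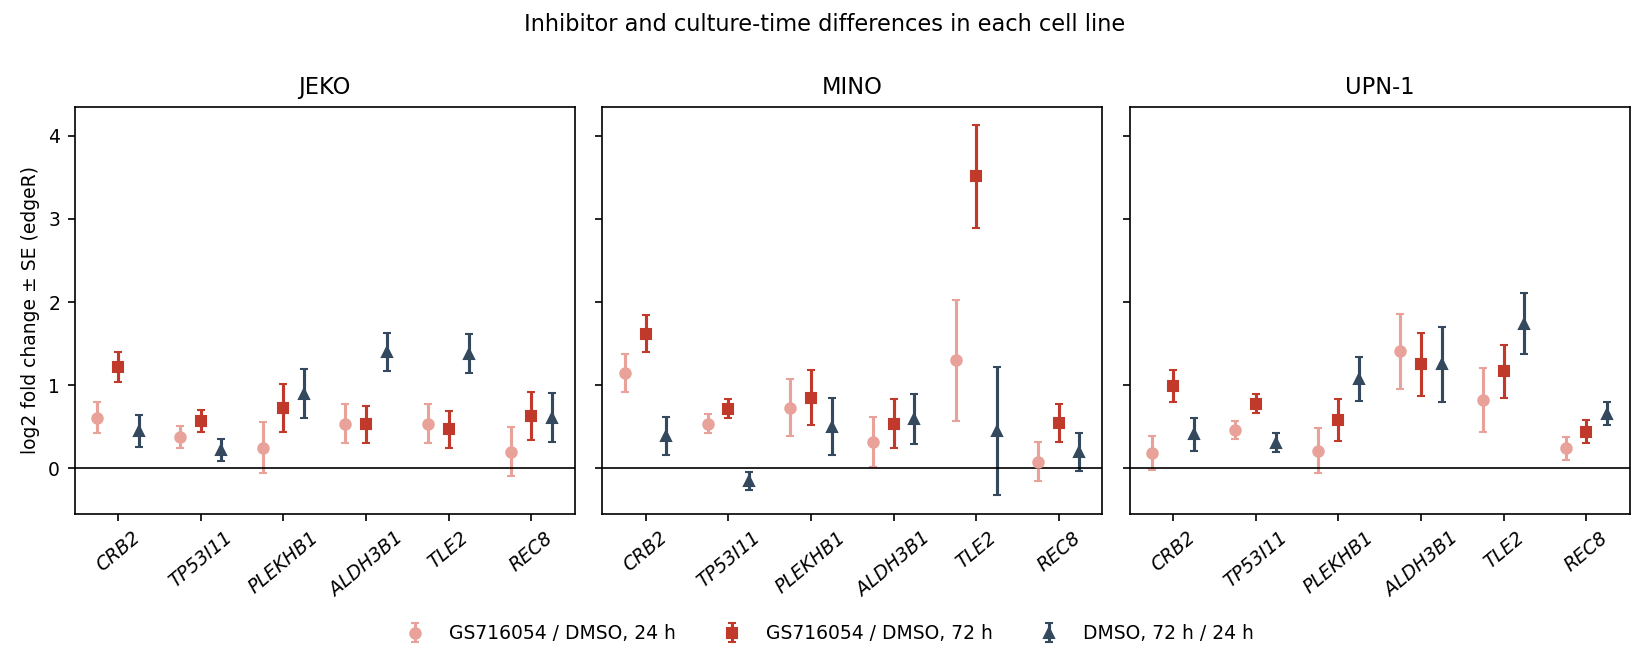
Log2 fold changes ± SE from edgeR (n = 3 a group) for GS716054 against DMSO at 24 h (pale circles) and 72 h (red squares) and for DMSO at 72 h against 24 h (dark triangles), in each line, with a line at 0. The dark triangles stand above the red squares for ALDH3B1 and TLE2 in JEKO and below them for CRB2 and TP53I11 in every line; TLE2 in MINO at 72 h is at 3.51 ± 0.616.

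The choice of genes did not compare the lines with one another, although it used the same DMSO libraries. In the levels without inhibitor, REC8, TLE2 and ALDH3B1 differed most between the 3 lines. Levels were compared over the 18 DMSO libraries, averaged over both times, with 6 libraries a line and 3 line pairs. REC8 was highest in JEKO at 101 ± 45.9 CPM (mean ± SD, n = 6), followed by UPN-1 at 27.6 ± 7.6 and MINO at 9.53 ± 1.5. Each step differed, with log2 differences of -1.91 ± 0.172 for UPN-1 against JEKO (edgeR adjusted p 1.25e-08) and 1.45 ± 0.181 for UPN-1 against MINO (1.01e-06). TLE2 had the same order, with 17.4 ± 9.87 CPM in JEKO, 4.15 ± 2.96 in UPN-1 and 0.457 ± 0.269 in MINO. MINO was lower than JEKO by a log2 difference of -5.09 ± 0.324 (adjusted p 7.54e-11), and UPN-1 was higher than MINO by 2.91 ± 0.349 (6.27e-07). ALDH3B1 had another order, with 18.4 ± 7.16 CPM in MINO, 12.5 ± 6.79 in JEKO and 0.917 ± 0.53 in UPN-1. The MINO and JEKO levels differed by 0.7 ± 0.183 (adjusted p 0.00243) and UPN-1 lay -3.75 ± 0.24 from JEKO (1.11e-10).

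The other 3 genes differed between lines by log2 values of at most 1.38. TP53I11 was at 90.3 ± 6.92 CPM in MINO, 64.6 ± 6.43 in JEKO and 47.6 ± 6.4 in UPN-1. Its neighbours in this order differed by 0.5 ± 0.0785 (MINO against JEKO, edgeR adjusted p 1.48e-05) and -0.47 ± 0.0792 (UPN-1 against JEKO, 3.37e-05). PLEKHB1 was highest in UPN-1 at 21.3 ± 10.6 CPM, with JEKO at 10.8 ± 4.6 and MINO at 7.59 ± 3.46. UPN-1 differed from JEKO by 0.92 ± 0.228 (adjusted p 0.00161), while JEKO and MINO did not pass (-0.45 ± 0.236, 0.0999). CRB2 was at 9.78 ± 2.59 CPM in UPN-1, 8.42 ± 1.69 in JEKO and 6.86 ± 1.68 in MINO. Only the ends of that order passed, UPN-1 against MINO at 0.47 ± 0.16 (adjusted p 0.0176), and neither neighbour did (adjusted p 0.313 and 0.137). That call was lost without the UPN-1 72 h DMSO replicate 2 (adjusted p 0.0625). Without the MINO 72 h DMSO replicate 2, MINO against JEKO passed for CRB2 (adjusted p 0.0465) and PLEKHB1 (0.00656). Of the 6 genes, 4 passed for MINO against JEKO, 5 for UPN-1 against JEKO and 6 for UPN-1 against MINO, against 63.5%, 62.7% and 58.6% of all genes, so passing between lines was the rule.

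Per kilobase of exon, where genes can be set beside one another, REC8 in JEKO was the highest at 26.4 CPM per kb with DMSO, above 89.1% of the genes tested in that line. TP53I11 was above the middle of each line's genes, at 12.3 CPM per kb in MINO (73.7% of genes below), 8.8 in JEKO (69.4%) and 6.48 in UPN-1 (58.9%). CRB2 was in the lower part of each, at 1.54 CPM per kb in UPN-1 (27.7% below), 1.33 in JEKO (27.7%) and 1.08 in MINO (19.9%). PLEKHB1 reached 4.32 CPM per kb in UPN-1 (48.7% below) against 2.19 in JEKO and 1.54 in MINO. The lowest of the genes that passed the count filter were TLE2 in MINO at 0.11 CPM per kb (1.45% below) and ALDH3B1 in UPN-1 at 0.139 (2.73%). All 6 genes passed that filter in every line, TLE2 in MINO with 24 to 130 reads in its treated 72 h libraries and 2 to 8 with DMSO. ALDH3B1 in UPN-1 held 31 to 45 reads in its treated 72 h libraries, against 4 to 7 with DMSO at 24 h and 9 to 19 at 72 h.

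With each line's mean removed, Pearson's r between pairs of the 6 genes ran from 0.61 (TP53I11 and REC8) to 0.87 (CRB2 with TP53I11 and with TLE2) over the 36 libraries. These values hold the treated against DMSO difference for which the genes were chosen, so nothing is read from their sign. In the 18 DMSO libraries alone r ran from 0.41 (TP53I11 and REC8) to 0.87 (PLEKHB1 and ALDH3B1). That is a description, since these libraries share time and replicate number and other pairs of genes were not set beside them. At 72 h replicate 2 was the highest library in all 6 groups for PLEKHB1, in 5 of 6 for CRB2 and TLE2, in 4 for TP53I11 and ALDH3B1 and in 2 for REC8. What set replicate 2 apart was not tested.

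Among the 13791 genes tested in all lines, those with the pattern most like each gene over the 36 libraries were found by Pearson's r of log2 CPM. For CRB2 they were MXD4 (0.85), a MAX-binding repressor, and FNDC10 (0.83), and within lines these r were 0.86 and 0.85. TP53I11 was followed most closely by CLIP2 (0.93) and CD82-AS1 (0.9), PLEKHB1 by RBMS2 (0.88) and VAT1 (0.87), and ALDH3B1 by UNC13D (0.96) and DENND1C (0.95). HPCA (0.94) and SEMA3F (0.93) were closest to TLE2. For REC8, ELF2 and DECR2 both had 0.96, but within lines 0.53 and 0.59, so that likeness was mostly one of levels between lines. For the other 5 genes the r within lines stayed between 0.77 and 0.86.

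The nearest tested genes on each side showed whether neighbours of the 6 genes differed too. Of these 12 neighbours, 0 passed in edgeR in JEKO, in UPN-1 or in MINO at 24 h, and 0 passed there in DESeq2. In each of these 5 comparisons 1 of the 12 had an unadjusted p under 0.05, against 3.78% to 17.7% of all genes. With a block for the replicate number within each time, 1 neighbour passed for MINO at 24 h (15.8% of all genes under that block), 3 for MINO at 72 h (20.2%) and 2 for UPN-1 at 72 h (7.47%). In MINO at 72 h 4 of the 12 had an unadjusted p under 0.05 in edgeR, against 22.2% of all genes, and 1 passed, against 5.56%. It was ENSG00000267469, 5275 bases from TLE2, at 434 CPM with GS716054 and 250 CPM with DMSO (0.79 ± 0.152, adjusted p 0.0105). All of its exonic bases overlap TLE5 on the opposite strand. Its reads and those of TLE5 cannot be told apart without strand, which the sources used here do not give. Its lower coordinate is also that of TLE5, which therefore lies as near to TLE2. In MINO TLE5 differed by 0.33 at 24 h and 0.75 at 72 h, beside 0.37 and 0.79 for ENSG00000267469. Both lay between -0.18 and 0.03 in JEKO and UPN-1. How far these are the same reads was not tested. The ENSG00000267469 call was lost without the 72 h DMSO replicate 1 (edgeR adjusted p 0.056) or 3 (0.054). STRBP and DENND1A, on the sides of CRB2, had log2 differences between -0.14 and 0.26 over the 6 comparisons. FAM168A and RAB6A beside PLEKHB1 lay between -0.02 and 0.28. TSPAN18, which overlaps TP53I11, had positive values in all 6 comparisons, from 0.39 ± 0.311 to 0.83 ± 0.286, with none passing. PRDM11, on the other side of TP53I11, lay at 0.01 to 0.2 at 24 h and at 0.41 to 0.76 at 72 h. TLE6, 2460 bases from TLE2, was also positive in all 6, from 0.07 ± 0.401 to 0.88 ± 0.454. PRDM11 and TLE6 did not pass without the block. UNC93B1 and NDUFS8 beside ALDH3B1 lay between -0.45 and 0.34, and RNF31 and TM9SF1 beside REC8 between -0.56 and 1.13. DENND1A shares 5.702% of the exonic length of CRB2 on the opposite strand, TSPAN18 1.035% of TP53I11 and IPO4 1.015% of REC8.

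The relatives and partners of the 6 genes were followed through lists of symbols, and in edgeR's test with the filter on low counts members of the lists passed in MINO. In JEKO and UPN-1, 0 of the 87 or 88 tested genes of the 6 lists passed that test. At an unadjusted p under 0.05 there were 3 and 9 in JEKO at 24 h and 72 h, against 3.97% and 8.62% of all genes, and 3 and 14 in UPN-1, against 3.78% and 7.41%. DESeq2 called 1 of them in JEKO at 72 h, where it called 227 genes over the whole table, and 0 in the other 3 comparisons. The block within each time called 0 and 5 in JEKO, against 0.0899% and 3.34% of all genes. It called 2 and 17 in UPN-1, against 1.5% and 7.47%. Without the low-count filter, JEKO had 1 call and UPN-1 had 3, both at 72 h, where 355 and 231 genes were called over the whole table. Without the UPN-1 72 h DMSO replicate 2, 2 of the list genes passed for that line. In MINO 6 of 81 passed at 24 h and 10 at 72 h, against 2.39% and 5.56% of all genes. With the block within each time 20 and 26 of the 81 passed, against 15.8% and 20.2% of all genes under the same block. The counts in MINO moved with single libraries. Without any 1 of the 6 libraries at 24 h, 1 to 3 passed. At 72 h 3 to 11 passed, with 3 without the DMSO replicate 1 or 3 and 5 without the treated replicate 3. Without the low-count filter, 11 passed at 24 h and 12 at 72 h. A test of the difference between lines was not made.

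The p53-induced list, chosen for TP53I11, held 22 tested genes in MINO, of which 3 rose at 24 h and 4 rose and 1 fell at 72 h. The list's median log2 difference was 0.24 and 0.14 against 0.01 and -0.03 over all genes. BTG2, an antiproliferative gene, rose from 126 ± 4.61 to 367 ± 40.5 CPM at 24 h (1.52 ± 0.205, edgeR adjusted p 0.00572) and by 1.27 ± 0.203 at 72 h (0.00418). TP53INP1, which acts in stress-induced apoptosis and autophagy, rose by 2.11 ± 0.364 at 24 h and 1.69 ± 0.347 at 72 h (adjusted p 0.0146 at each). ZMAT3, a zinc finger RNA-binding protein, rose by 0.67 ± 0.122 (adjusted p 0.0178) and 0.5 ± 0.121 (0.0315). SESN2, a sestrin of the stress and amino acid response, fell from 38.6 ± 5.64 to 21.9 ± 2.46 CPM at 72 h (-0.84 ± 0.15, adjusted p 0.00741). With the block, 7 of the list rose and 1 fell at 24 h and 8 rose and 2 fell at 72 h, against 15.8% and 20.2% of all genes called in either direction under the block. BTG2 and SESN2 kept these calls under all alternatives run, while TP53INP1 and ZMAT3 each lost theirs without at least 1 library (adjusted p up to 0.0767 for TP53INP1 and 0.12 for ZMAT3). ZMAT3 at 72 h was not called without the low-count filter either (adjusted p 0.171). In the other lines the list's median was 0.09 at 24 h and -0.16 at 72 h in JEKO, and 0.09 and -0.09 in UPN-1. At 72 h the block within each time called 2 of the list higher and 2 lower in JEKO, against 3.34% of all genes in either direction. In UPN-1 it called 3 higher and 3 lower, against 7.47%.

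In the other lists 0 to 2 genes each passed in MINO at a time. Of 10 tested PLEKH family relatives of PLEKHB1, PLEKHA2 rose in MINO at 24 h (0.72 ± 0.146, edgeR adjusted p 0.0274) and 72 h (0.7 ± 0.146, 0.016), and PLEKHO1 rose at 72 h (0.97 ± 0.226, 0.0257). Of 11 tested aldehyde dehydrogenases, the mitochondrial ALDH1B1 fell by 0.68 on the log2 scale at 24 h (SE 0.132, adjusted p 0.0227) and by 0.61 at 72 h (SE 0.133, 0.0195). Of 11 tested TLE corepressors and recruiting factors, TLE1 rose at 24 h (0.79 ± 0.13, edgeR adjusted p 0.0123) and TLE5, a short family member whose exons ENSG00000267469 overlaps, at 72 h (0.75 ± 0.157, 0.0162). TLE5 and ENSG00000267469 lie at the same locus beside TLE2, so their calls are not separate results. TLE6 is also both a neighbour of TLE2 and on this list. Of 19 tested cohesin subunits and regulators, SMC3, which pairs with kleisins in the ring, fell at 72 h by 0.48 (SE 0.121, adjusted p 0.0361). The block within each time called more of them, against the shares of all genes given above. At 24 h it called 3 of the PLEKH genes, 3 of the dehydrogenases, 4 of the TLE list and 2 of the cohesin list in MINO, and at 72 h 4, 2, 5 and 4. With log2 differences from the fit without the block and edgeR adjusted p with it, these included PLEKHO1 (0.67 ± 0.225, adjusted p 0.00286) and SMC3 (-0.47 ± 0.121, 0.00912) at 24 h and TLE1 at 72 h (0.43 ± 0.128, 0.0129). In UPN-1 at 72 h the block called genes of these lists too, against 7.47% of all genes. It called 1 of the cohesin list higher and 4 lower, 1 dehydrogenase higher and 1 lower, and 0 PLEKH genes. Of the TLE list it called 2 higher and 1 lower, the latter being TLE1 (-0.4 ± 0.123, edgeR adjusted p 0.00956). In JEKO at 72 h it called 1 of the cohesin list lower, against 3.34% of all genes. The list medians in MINO at 72 h were 0.36 for the PLEKH family, -0.01 for the dehydrogenases, 0.17 for the TLE list and -0.15 for cohesin. Each call named here from the fit without the block was lost without at least 1 library, with adjusted p up to 0.155 for PLEKHA2, 0.0974 for PLEKHO1, 0.13 for ALDH1B1, 0.0679 for TLE1, 0.0777 for TLE5 and 0.117 for SMC3. Of 13 Crumbs complex genes, 8 were tested in MINO and 0 passed without the block in edgeR. At each time 1 had an unadjusted p under 0.05, against 17.7% and 22.2% of all genes. DESeq2 called 1 at 72 h, with 1557 genes over the whole table, and the block called 1, against 20.2% of all genes.

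Of the inhibitor's targets, the KDM5 enzymes, transcripts of 3 were followed. KDM5A, KDM5B and KDM5C had 0 calls in the 6 comparisons in edgeR with the low-count filter and no block and in DESeq2, and 0 at an unadjusted p under 0.05. Without the filter KDM5B passed in MINO at 24 h (edgeR adjusted p 0.00592). KDM5A was at 119 ± 13.4 CPM with GS716054 and 110 ± 5.35 CPM with DMSO in JEKO at 24 h, and its log2 differences over the 6 comparisons lay between 0.01 and 0.32. KDM5C lay between -0.1 and 0.11. KDM5B varied most, from -0.01 ± 0.566 in MINO at 72 h to 0.85 ± 0.578 in MINO at 24 h. With the block within each time, KDM5B passed for MINO at 24 h (adjusted p 0.000252) and for UPN-1 at 72 h (0.00457).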

How the data were processed

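RNA was sequenced from 36 libraries of 3 lines, and the authors deposited 1 table of whole-number read counts per library. Per the submitters' processing notes, HISAT2 2.2.1, HTSeq 0.13.5 and GRCh38 were used; the annotation release, strand setting and counting options are not given in the sources used here. Lines that name no gene, 55.09% to 59.3% of each table's reads, were left out. Reads that matched no annotated feature made up 43.25% to 45.93%, and reads in genes 40.7% to 44.91%. Of 58302 gene IDs, 57532 matched GENCODE v44.

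Counts were fitted in R 4.3.3 with edgeR 4.0.16 (quasi-likelihood test, TMM scaling, filterByExpr with minimum count 10 and total 15), 1 model per line with a coefficient per group. DMSO levels between lines came from 1 model of the 18 DMSO libraries. Calls needed a p below 0.05 after Benjamini-Hochberg adjustment across every gene in the fit. SE is the absolute log2 fold change over the square root of F. CPM use TMM-scaled sizes of all 36 libraries; likeness used log2 CPM with a prior count of 2. Transcripts were aligned with blastn 2.17.0. The fit was checked on simulated counts.

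The members and lists were chosen with earlier results of these data known. Named genes were the members; up to 4 called genes per list; KDM5A, KDM5B and KDM5C; the nearest tested gene on each side of a member; genes sharing its exons; and the 2 most alike. Alternatives were DESeq2 1.42.0, its size factors in edgeR, no filter, a replicate block and leaving out each library. Same-numbered treated and DMSO libraries deviated together (r 0.107 to 0.595 for all pairs in 5 of 6 comparisons, 0.055 for 1 pair of JEKO at 24 h). Between 24 h and 72 h DMSO libraries r was mostly lower (-0.066 to 0.171). Its highest values, 0.171 for JEKO replicate 3 and 0.151 for UPN-1 replicate 3, passed some pairs within 24 h. In JEKO each DMSO library still matched best with its own number across times, as did replicates 1 and 3 of UPN-1. Within a time each did so except replicate 3 of MINO at 72 h. A block for the number within each time was therefore added after the data were seen.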

Additional observations from a re-analysis of the deposited data

How the results depend on the processing

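Fold changes of the 6 genes kept their direction under other scaling, no low-count filter, DESeq2 and both replicate blocks. Leaving out 1 library reversed REC8 in MINO at 24 h (-0.06 without the DMSO replicate 1, -0.21 without the treated replicate 2, over a range of -0.21 to 0.24 for the 6 libraries of that comparison). Counts of genes called over the whole table moved more. For GS716054 in JEKO at 24 h, 3 genes were called, against 44 without a filter and 25 in DESeq2; at 72 h 50, against 355 and 227. In MINO the counts were 359 at 24 h, against 1053 and 915, and 835 at 72 h, against 1492 and 1557. In UPN-1 they were 4 at 24 h, against 36 and 19, and 51 at 72 h, against 231 and 158. For culture time, MINO had 14, against 1727 and 929, and UPN-1 224, against 1845 and 1026. The cause was not tested.

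The replicate block (1 term per number) gave 8 and 113 genes in JEKO at 24 h and 72 h, 994 and 1536 in MINO and 12 and 223 in UPN-1. The replicate block within each time, chosen after seeing the data, gave 15 and 557, 2373 and 3029, and 228 and 1139. For culture time, where same-numbered libraries mostly deviated together less, the replicate block gave 1819 genes in MINO and 2784 in UPN-1. It called 4 of the 6 members in UPN-1 (TP53I11 edgeR adjusted p 0.046, PLEKHB1 0.00154), where it called 2784 of 15248 genes tested. Without the block 2 members and 224 genes (1.47%) were called there. The replicate block also called PLEKHB1 for MINO against JEKO (0.0471). Without a filter PLEKHB1 passed for culture time in UPN-1 (1.02e-07) and for MINO against JEKO (0.0189), and REC8 for culture time in JEKO (0.00875). DESeq2 called PLEKHB1 for culture time in UPN-1 (0.0061). At 72 h in MINO, ZMAT3 (0.171) and SMC3 (0.0879) were not called without a filter.

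Leaving out 1 library at a time, the genes called ranged from 0 to 1 in JEKO at 24 h, 15 to 52 at 72 h, 27 to 91 and 358 to 1518 in MINO, and 2 to 5 and 5 to 139 in UPN-1. For culture time they ranged from 2717 to 4914 in JEKO (2 to 3 members), 4 to 235 in MINO (0 to 0) and 1 to 3084 in UPN-1 (0 to 5). Between lines they ranged from 10366 to 11047 for MINO against JEKO (4 to 6 members), 10212 to 10828 for UPN-1 against JEKO (5 to 5) and 9498 to 10197 for UPN-1 against MINO (5 to 6). Depth limits ALDH3B1 in UPN-1 and TLE2 in MINO, where some DMSO libraries held fewer than 10 reads.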
